A study of Mus musculus with 6 samples.

Results

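The contractile genes examined here are 40 genes of actin stress fibres and of the adhesions that anchor them. They were chosen by name, with earlier results of these data known. Each was read from the brightest probe set that the array annotation assigns to that gene alone. All 40 were measured, among 19938 genes in all. AGR cells, 3 arrays, are the progeny of 1 colony that grew out of NME cells in basement membrane gel under 1 µM AG1478, an inhibitor of the EGFR kinase, and that was then expanded in plastic culture. NME cells, 3 arrays, are NMuMG mouse mammary gland cells that were transformed by stable viral overexpression of EGFR under puromycin selection, so both cell lines carry the EGFR transgene. Both were grown in medium with serum and insulin, and the study's methods state that resistant lines were kept without drug once established. As AGR cells come from a single colony, a difference between the cell lines cannot be told apart from a difference between that clone and the parental population. Neither the labels nor the methods say whether replicate arrays stand for separate cultures, so a p-value here reflects only the spread between these arrays.

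Levels were read from Affymetrix Mouse Gene 1.0 ST arrays hybridized with total RNA, and they are given as the log2 of the deposited intensity. The median intensity of the arrays lay between 190.4 and 200.8. Over all probe sets, Pearson's r lay between 0.995 and 0.997 for arrays within a cell line and between 0.986 and 0.988 for AGR against NME arrays. A gene's SD had a median of 0.075 over the AGR arrays and 0.067 over the NME arrays on the log2 scale. The files hold no detection calls, and the median over all probe sets, a log2 intensity of 7.61, is taken here as the level under which signal and background could not be separated. In 7 of the 40 genes AGR replicate 2 was more than 0.2 on the log2 scale away from the other AGR arrays' mean, which held for AGR replicate 1 in 2 genes and for AGR replicate 3 in 0. The labelled epithelial origin was checked against 11 markers, of which Krt8 and Krt18 were bright in both cell lines while Epcam, Esrp1 and Cldn7 lay below 7.61 in both.

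Stress fibres are bundles of actin filaments that are crosslinked by α-actinin, coated by tropomyosins and pulled by nonmuscle myosin II. At their ends, talin, vinculin, zyxin, paxillin and tensins couple the filaments to integrins in focal adhesions. Many of these genes are transcribed by serum response factor (SRF) together with the MRTF coactivators, which monomeric actin holds back, and epithelial cells that undergo EMT commonly assemble stress fibres in place of a cortical actin belt. The comparison of AGR and NME cells asks which of these components changed in level in cells that had acquired resistance to AG1478.

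SRF binds a DNA element named the CArG box, and the region before the start site of each member was searched for it. Promoter windows of RefSeq, from 250 bases before to 50 bases after the start site, matched 35 of the 40 genes with 45 windows. The genes without a matched window were Actg2, Tagln, Myh11, Pxn and Parva. A CArG box, which reads the same on either strand, was present in 7 of these 35 genes (20.0%), against 254 of 15614 genes tested on the arrays (1.63%). It was found in 4 of the 23 matched genes that were higher in AGR cells, in 1 of the 4 that were lower and in 2 of the 8 that did not pass the test. As many of the 40 genes are known to be transcribed by SRF, their excess over all genes is not independent of their choice. Looser forms of the box and bases outside the window were not searched. The bases before the start site are printed here for the 4 members that were higher in AGR cells and held a box, and for Fhl1, which held one and was lower. Capitals mark the CArG boxes, and coordinates are those of GRCm38.p6.
Cnn2, chr10:79988350-79988599, plus strand: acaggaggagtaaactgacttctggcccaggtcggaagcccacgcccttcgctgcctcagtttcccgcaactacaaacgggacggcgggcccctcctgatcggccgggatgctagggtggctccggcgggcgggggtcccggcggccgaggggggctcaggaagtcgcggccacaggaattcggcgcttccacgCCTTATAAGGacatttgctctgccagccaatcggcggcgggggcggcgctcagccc
Vcl, chr14:20929148-20929397, plus strand: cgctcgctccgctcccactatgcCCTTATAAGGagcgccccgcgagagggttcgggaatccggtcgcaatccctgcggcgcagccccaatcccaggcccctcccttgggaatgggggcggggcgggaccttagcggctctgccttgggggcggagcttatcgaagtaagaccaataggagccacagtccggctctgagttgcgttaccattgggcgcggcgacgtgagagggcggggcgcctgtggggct
Lmcd1, chr6:112273508-112273757, plus strand: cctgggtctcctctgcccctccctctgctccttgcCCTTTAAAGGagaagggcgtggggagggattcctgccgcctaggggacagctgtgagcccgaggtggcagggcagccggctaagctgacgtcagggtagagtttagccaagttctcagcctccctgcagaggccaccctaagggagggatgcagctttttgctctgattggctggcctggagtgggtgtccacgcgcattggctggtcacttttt
Srf, chr17:46556163-46556412, minus strand: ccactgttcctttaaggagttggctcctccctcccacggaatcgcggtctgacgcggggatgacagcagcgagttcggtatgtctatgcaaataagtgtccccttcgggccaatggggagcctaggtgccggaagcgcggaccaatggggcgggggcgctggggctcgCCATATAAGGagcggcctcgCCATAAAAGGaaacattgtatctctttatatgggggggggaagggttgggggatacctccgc
Fhl1, chrX:56779433-56779682, plus strand: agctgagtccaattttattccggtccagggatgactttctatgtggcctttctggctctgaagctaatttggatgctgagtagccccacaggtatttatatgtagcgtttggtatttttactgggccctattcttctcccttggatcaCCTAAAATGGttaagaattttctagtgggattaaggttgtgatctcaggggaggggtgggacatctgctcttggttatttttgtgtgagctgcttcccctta
The first base of the box lay at position -56 in Cnn2, -227 in Vcl, -215 in Lmcd1 and -102 in Fhl1, where -1 is the last base before the start site. The Srf window held a pair of boxes, at -82 and -62. The remaining boxes were in Myl9, at -161, and in both windows of Fhl2, at -31 and -96. The M-CAT core CATTCC, searched on both strands as the element of TEAD factors, was present in 13 of the 35 genes (37.1%) and in 15.1% of genes tested. TATAAA on either strand was present in 7 genes (20.0%, against 13.6% of genes tested), CAGCTG in 9 (25.7%, against 18.4%) and CACGTG in 1 (2.86%, against 9.5%). None of these matches overlapped a CArG box. These counts describe letters in a window, and binding of a factor was not measured.

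By limma, with an adjusted p under 0.05 as the call, 24 of the 40 genes (60.0%) were higher and 5 (12.5%) lower in AGR cells, while 11 did not pass. Without NME replicate 2 or 3 or AGR replicate 1 or 3, 3 genes were called lower in place of 5. Among all genes tested, 12.6% were higher and 11.6% were lower by the same rule. As the 40 genes were chosen with earlier results of these data known, their excess over these shares is not an independent result. The median log2 fold change (FC) of the 40 genes was 0.34, against -0.02 for all genes. Most members are bright, and the test calls bright genes more often. Of the 34 members with a mean level at or above 7.61, 24 were higher and 5 were lower, where 19.7% of all genes at such levels were higher and 17.6% were lower. The median log2 FC was 0.44 for these 34 members and -0.01 for all genes at such levels. None of the other 6 members passed the test (limma, also at an unadjusted p under 0.05 or by the methods' t-test). AGR and NME arrays did not overlap in 30 members, which were the 29 called genes and Fhl2, and in 36.4% of all genes. The changes were mostly small. A FC above 1.5 was reached by 13 members that were higher and by 1 that was lower, against 4.28% and 3.6% of all genes, and a FC above 2 by 4 and 1, against 1.5% in each direction.

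**Figure D1:**
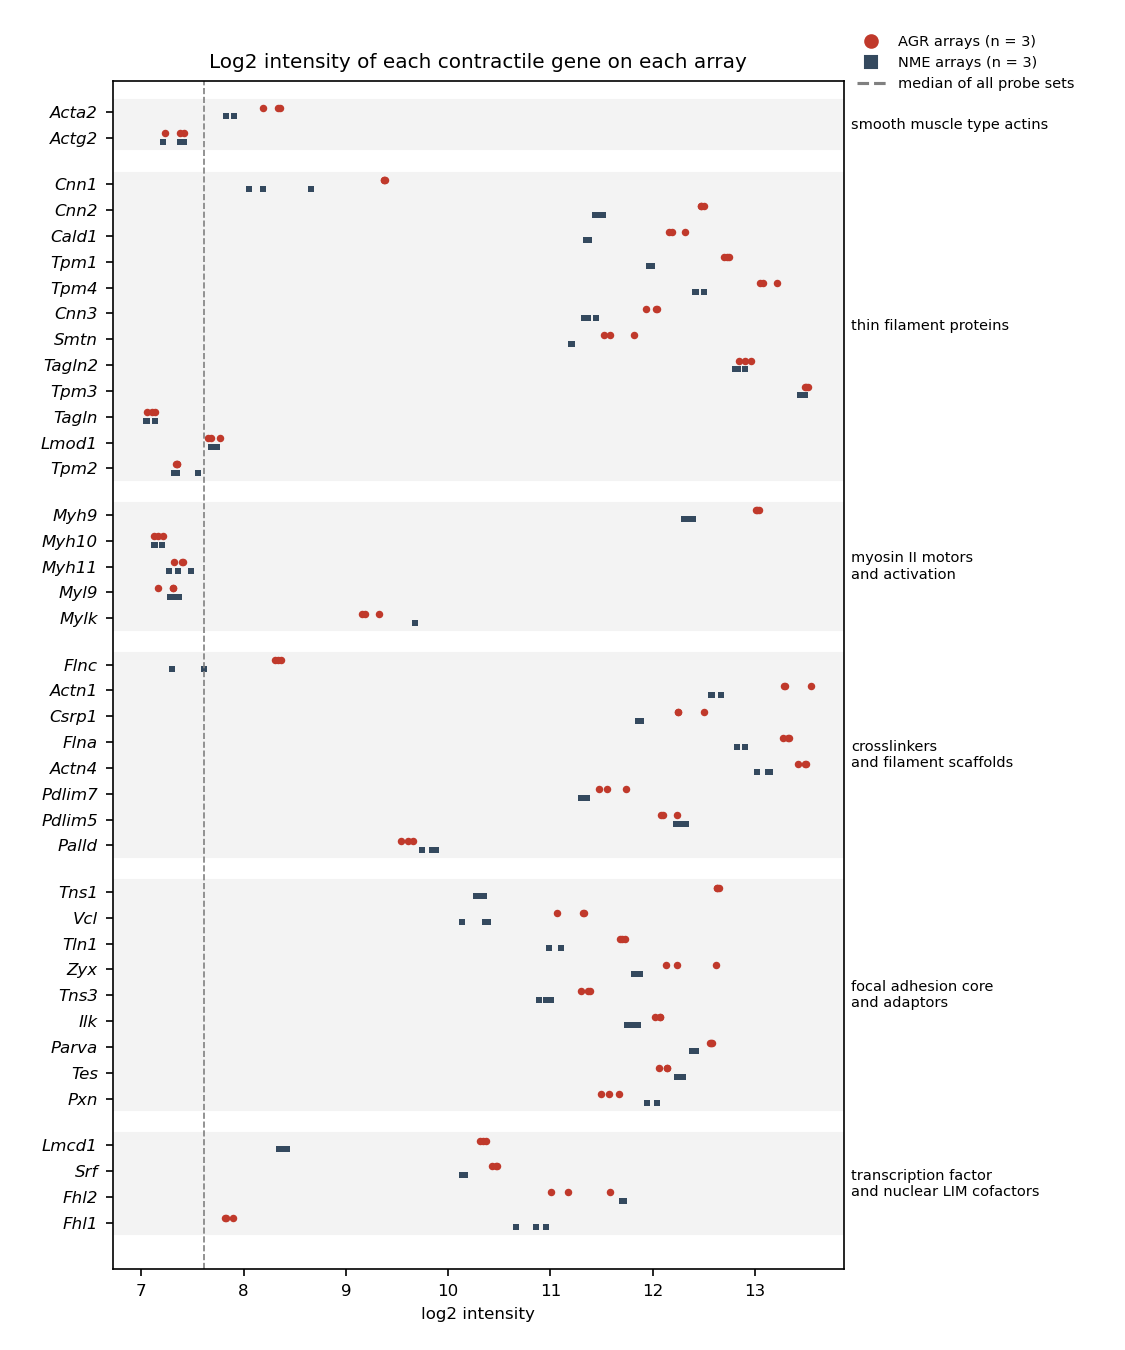
Log2 intensity (x axis) of each of the 40 contractile genes, grouped by role, on the 3 AGR arrays (red circles) and the 3 NME arrays (dark squares); the dashed line is the median of all probe sets, 7.61. The arrays of the cell lines do not overlap in 30 genes, and Actg2, Tagln, Tpm2, Myl9, Myh10 and Myh11 lie left of the line in both cell lines.

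**Figure D2:**
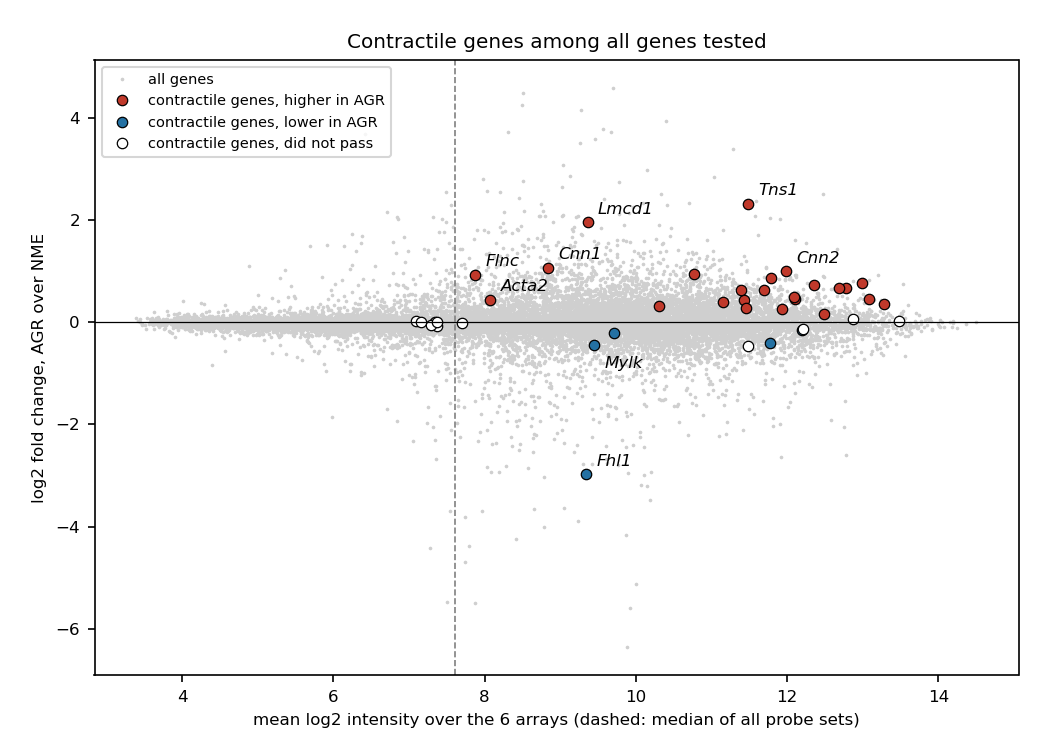
Log2 FC between AGR and NME cells (y axis) against the mean log2 intensity over the 6 arrays (x axis) for all 19938 genes (gray) and the 40 contractile genes (filled red, higher; filled blue, lower; open, did not pass). Of the 34 contractile genes right of the dashed line, the median of all probe sets, AGR cells had 24 called higher and 5 called lower.

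The actins of smooth muscle, Acta2 and Actg2, stayed low on these arrays. Acta2, which encodes α-smooth muscle actin and is the usual marker of myofibroblasts and of myoepithelium, had log2 intensities of 8.34, 8.19 and 8.36 on the AGR arrays, against 7.83, 7.90 and 7.83 on the NME arrays. Every AGR array lay above every NME array, and the increase was 1.36-fold (log2 FC 0.44, SE 0.06, adjusted p = 0.0021 from limma). Actg2, the enteric γ-actin, had levels between 7.23 and 7.41 on the AGR arrays and between 7.21 and 7.41 on the NME arrays. Its log2 FC of 0.01 had a 95% interval of -0.17 to 0.19, and both cell lines lay below 7.61, where a change may not be visible.

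Among 12 proteins that bind along the thin filament, 7 were higher in AGR cells (58.3%, against 12.6% of all genes tested) and 5 did not pass the test. Calponins, which bind actin and restrain its sliding on myosin, were higher in all 3 of their isoforms. Cnn1, the smooth muscle calponin, had log2 intensities of 9.37, 9.37 and 9.38 on the AGR arrays and of 8.05, 8.66 and 8.19 on the NME arrays. The NME arrays were spread more widely (SD 0.32, n = 3) than the AGR arrays (SD 0.0068, n = 3) without reaching them, and the log2 FC was 1.07 (SE 0.15, adjusted p = 0.00219). The deposited value was the same on AGR replicates 1 and 2, so this AGR SD may understate the spread between arrays. Cnn2, found in many nonmuscle cells, had levels of 12.50, 12.48 and 12.47 in AGR cells and of 11.52, 11.43 and 11.50 in NME cells. This was a FC of 2.00, at the threshold (log2 FC 1.00, SE 0.04, adjusted p = 1.53e-05). Cnn3, the acidic calponin, stood at 12.04, 12.03 and 11.94 in AGR cells and at 11.44, 11.33 and 11.37 in NME cells, a log2 FC of 0.62 (SE 0.05). Both isoforms were separated between the cell lines by far more than their spread.

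Caldesmon, Tpm1 and Tpm4 were higher in AGR cells as well, while Tpm2 and Tpm3 did not pass the test. Cald1 encodes caldesmon, which binds actin, myosin and calmodulin. Its levels were 12.19, 12.16 and 12.32 on the AGR arrays and 11.37, 11.35 and 11.35 on the NME arrays, a log2 FC of 0.87 (SE 0.05, adjusted p = 7.31e-05). Tropomyosins are coiled coils that lie along the filament and set which proteins can bind it. Tpm1 had levels of 12.729, 12.700 and 12.746 in AGR cells and of 11.997, 11.964 and 11.997 in NME cells, a log2 FC of 0.74 (SE 0.04, adjusted p = 4.24e-05). Tpm4 had levels of 13.07, 13.05 and 13.21 in AGR cells and of 12.50, 12.41 and 12.43 in NME cells, a log2 FC of 0.66 (SE 0.06, adjusted p = 0.000328). Neither gene had overlapping arrays. Tpm3 had a log2 FC of 0.03 (95% interval -0.06 to 0.13) on its brightest probe set, and none of its 4 probe sets passed the test, with log2 FCs between 0.02 and 0.25. RefSeq lists 3 pseudogenes of Tpm3, and whether its probes also bind other loci was not tested. Tpm2 had a log2 FC of -0.07 (95% interval -0.23 to 0.10) below 7.61.

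Of the 4 other thin filament genes, 1 passed the test. Smtn, which encodes smoothelin, was higher with a log2 FC of 0.44 (SE 0.08, adjusted p = 0.00748), and this call was lost with the methods' t-test (adjusted p = 0.0508). Tagln, which encodes the smooth muscle protein transgelin and is a classical SRF target, had levels of 7.14, 7.10 and 7.05 on the AGR arrays, against 7.05, 7.14 and 7.04 on the NME arrays. The arrays overlapped, and both cell lines lay within the range of olfactory receptor genes, of which 95% had a mean level under 7.25. Its nonmuscle relative Tagln2 was bright in both cell lines, at 12.91 ± 0.06 in AGR cells and 12.85 ± 0.05 in NME cells (SD, n = 3 each). The log2 FC of Tagln2 was 0.06, with a 95% interval of -0.06 to 0.18. Lmod1, the leiomodin of smooth muscle, had a log2 FC of -0.01 (95% interval -0.12 to 0.11).

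**Figure D3:**
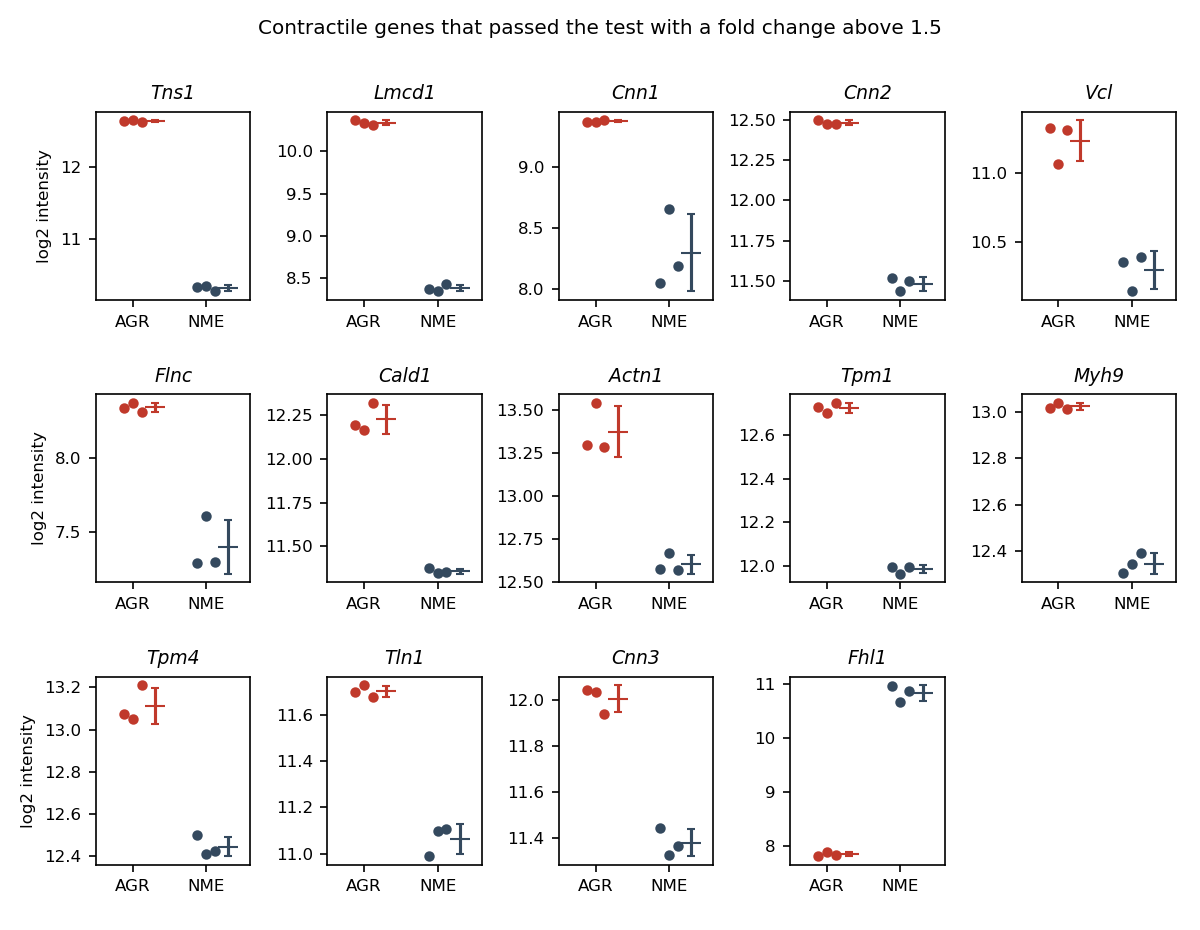
Log2 intensity (y axis, scaled for each gene and not starting at 0) on the 3 AGR arrays (red, left) and the 3 NME arrays (dark, right) of the 14 contractile genes that passed the test with a FC above 1.5; the bars beside the points are the mean and SD. In 13 genes the AGR arrays lie above the NME arrays, and in Fhl1 they lie below.

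Of the 5 myosin genes, 1 was higher (20%) and 1 was lower (20%), against 12.6% and 11.6% of all genes tested. Myh9, the heavy chain of nonmuscle myosin IIA and the main motor of stress fibres in many cells, had log2 intensities of 13.02, 13.04 and 13.01 on the AGR arrays and of 12.30, 12.34 and 12.39 on the NME arrays. The log2 FC was 0.68 (SE 0.04, adjusted p = 8.15e-05) without overlap between the cell lines. A second, dimmer probe set of Myh9 had a log2 FC of 0.27 (adjusted p = 0.0766 over all probe sets). Mylk, which encodes myosin light chain kinase, the calcium-dependent activator of myosin II, went the other way. It had levels of 9.19, 9.15 and 9.33 on the AGR arrays, against 9.67 on each of the 3 NME arrays, where the deposited value was the same. The log2 FC of Mylk was -0.45 (SE 0.06, adjusted p = 0.00149), and no AGR array reached the NME level. Its NME SD was 0 through this tie, so the SE and the p-value may understate the spread between arrays. Myl9, a regulatory light chain that this kinase phosphorylates, had levels of 7.31, 7.31 and 7.16 in AGR cells and of 7.28, 7.37 and 7.31 in NME cells. These overlapped and lay below 7.61, as did the levels of Myh10 (log2 FC 0.01, 95% interval -0.10 to 0.12) and of the smooth muscle heavy chain Myh11 (0.00, -0.15 to 0.16). By the level of 7.61 taken here, signal could not be told from background for these 3 genes. Of them, only Myh10 also lay below 7.25, the 95th percentile of olfactory receptor genes, in both cell lines.

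Crosslinkers and scaffolds of the filament bundle were higher in 6 of 8 cases (75%), while Palld was lower (12.5%) and Pdlim5 did not pass. Among all genes tested, 12.6% were higher and 11.6% were lower. Actn1, α-actinin-1, which spaces the filaments of a stress fibre, had log2 intensities of 13.30, 13.54 and 13.29 on the AGR arrays and of 12.58, 12.67 and 12.57 on the NME arrays. This was a 1.71-fold increase (log2 FC 0.77, SE 0.08, adjusted p = 0.00066). Actn4, its relative, rose less, with a log2 FC of 0.37 (SE 0.05, adjusted p = 0.00258). Filamins join actin filaments into networks and link them to integrins. Flnc, the filamin of muscle, had levels of 8.33, 8.37 and 8.31 in AGR cells and of 7.30, 7.61 and 7.30 in NME cells, a log2 FC of 0.93 (SE 0.09, adjusted p = 0.000494). As its NME mean was 7.40, below the 7.61 of the median probe set, the size of the change is uncertain. Flna, the widely expressed filamin, was bright in both cell lines and had a log2 FC of 0.46 (SE 0.05).

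Csrp1, a LIM protein that binds zyxin and α-actinin, had a log2 FC of 0.46 (SE 0.08, adjusted p = 0.00482). Pdlim7, or enigma, had a log2 FC of 0.28 (SE 0.07, adjusted p = 0.0314), and the call was lost with the methods' t-test (adjusted p = 0.106) and without NME replicate 1, 2 or 3 or AGR replicate 3, with adjusted p between 0.0722 and 0.108. Palld, palladin, a scaffold of stress fibre dense bodies, had a log2 FC of -0.22 (SE 0.06, adjusted p = 0.0315). This call was lost with the methods' t-test (adjusted p = 0.0806) and without NME replicate 2 or 3 or AGR replicate 1 or 3 (adjusted p between 0.0805 and 0.112). Pdlim5 had a log2 FC of -0.14 (95% interval -0.27 to 0.0025), which passed only without AGR replicate 2 (adjusted p = 0.0394).

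All 9 focal adhesion genes passed the test, 7 of them higher (77.8%) and 2 lower (22.2%) in AGR cells. Among all genes at or above 7.61, 19.7% were higher and 17.6% were lower. The calls of Tes, Parva and Zyx were lost in some alternatives, as given below. Tns1, tensin-1, which links actin to integrin tails and to phosphotyrosine proteins, had the largest increase of the 40 genes. Tns1 had log2 intensities of 12.63, 12.65 and 12.63 on the AGR arrays and of 10.33, 10.35 and 10.27 on the NME arrays, a FC of 4.99 (log2 FC 2.32, SE 0.04, adjusted p = 1.47e-06). Of 6 probe sets for Tns1, 5 were higher, with log2 FCs between 1.77 and 2.48, and 1 had a log2 FC of 0.09 (adjusted p = 0.5 over all probe sets). The annotation of this probe set lacked 1 transcript that the other 5 shared. Its relative Tns3 had a log2 FC of 0.40 (SE 0.05, adjusted p = 0.00158).

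Vinculin and talin, which form the load-bearing link between integrins and actin, were both higher. Vcl had levels of 11.33, 11.06 and 11.31 on the AGR arrays and of 10.36, 10.14 and 10.39 on the NME arrays, a log2 FC of 0.94 (SE 0.10, adjusted p = 0.000694). Tln1 had levels of 11.70, 11.73 and 11.68 in AGR cells and of 10.99, 11.10 and 11.11 in NME cells, a log2 FC of 0.64 (SE 0.05, adjusted p = 0.000185). Neither gene had overlapping arrays. Integrin-linked kinase and α-parvin, partners in 1 complex, rose by less. The log2 FC was 0.26 for Ilk (SE 0.05, adjusted p = 0.00737) and 0.16 for Parva (SE 0.04, adjusted p = 0.0256). The call of Parva was lost on leaving out any single array other than AGR replicate 2 (adjusted p between 0.0553 and 0.0698).

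Zyxin, which gathers at adhesions and stress fibres under tension, had a log2 FC of 0.49 that depended on the arrays. Zyx had levels of 12.13, 12.62 and 12.24 on the AGR arrays and of 11.82, 11.88 and 11.82 on the NME arrays. AGR replicate 2 stood apart, and the call (adjusted p = 0.0262) was lost with the methods' t-test (adjusted p = 0.121) and without NME replicate 1, 2 or 3 or AGR replicate 3 (adjusted p between 0.0682 and 0.0984). Pxn, paxillin, an adaptor of focal adhesion kinase, was lower with a log2 FC of -0.40 (SE 0.06, adjusted p = 0.00339). Tes, testin, a LIM protein that binds zyxin, was lower by 0.15 on the log2 scale (adjusted p = 0.045), and its call was lost on leaving out any 1 of the 6 arrays (adjusted p between 0.0506 and 0.13). It was also lost with quantile normalization (adjusted p = 0.0519) and median centring (adjusted p = 0.169).

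**Figure D4:**
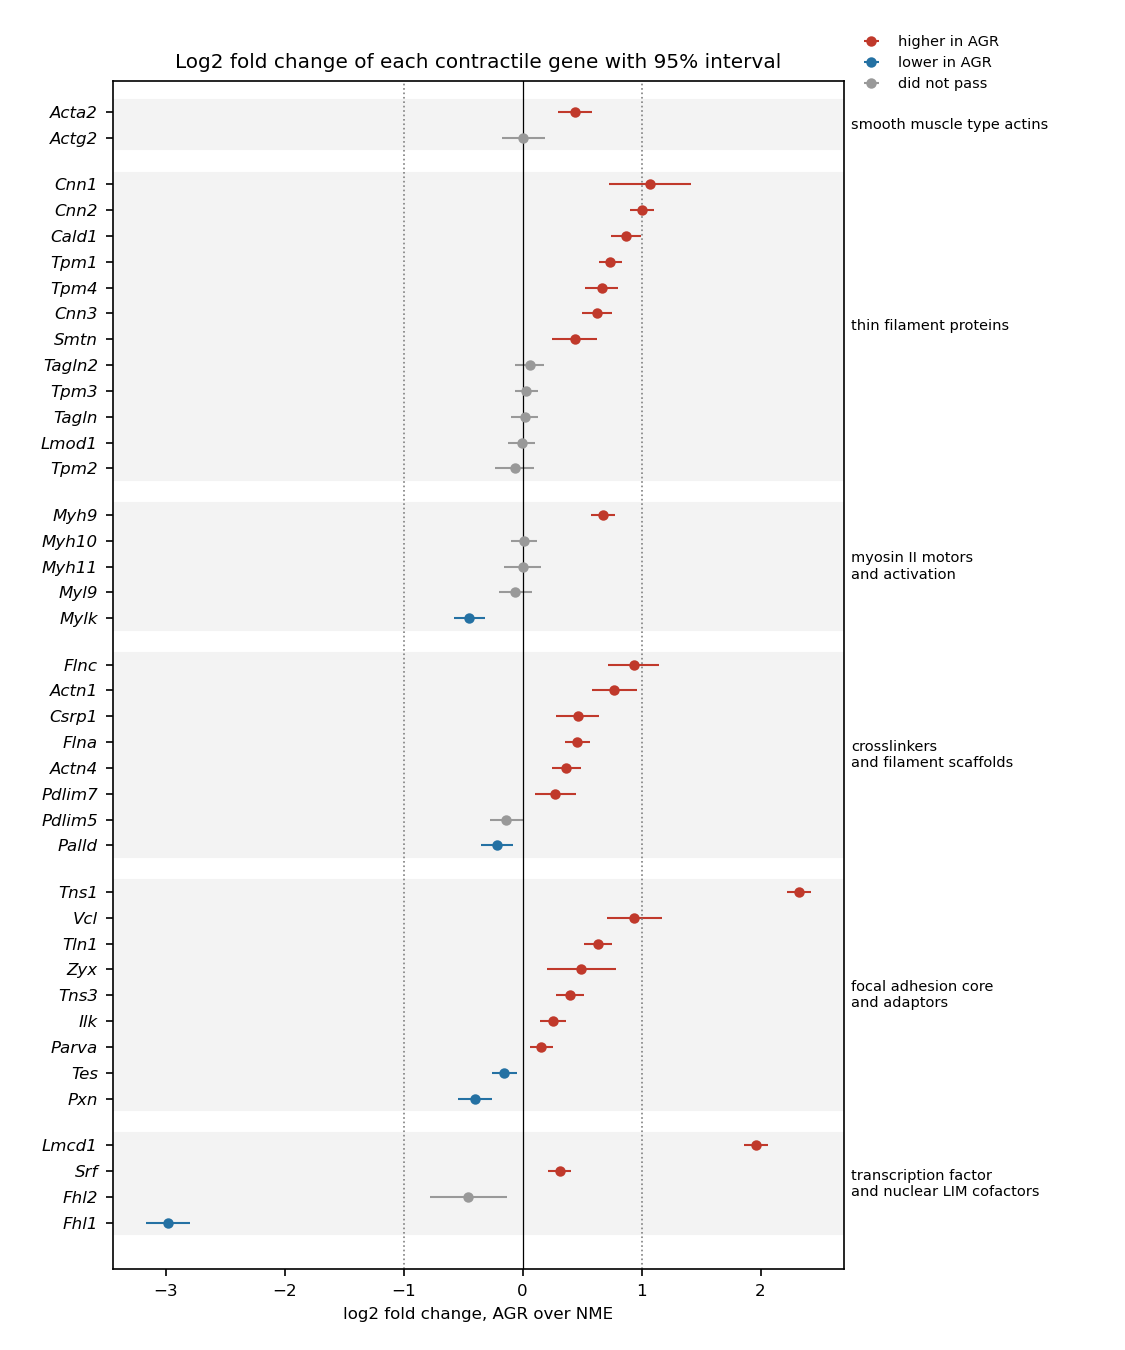
Log2 FC between AGR and NME cells on the x axis, for each contractile gene with its 95% interval from limma, grouped by role; red marks genes called higher in AGR cells, blue genes called lower, gray genes that were not called, and dotted lines mark a FC of 2. Tns1 at 2.32 and Lmcd1 at 1.96 lie farthest to the right, and Fhl1 at -2.98 lies farthest to the left.

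The transcription factor Srf rose slightly, and the LIM cofactors beside it moved in opposite directions. Srf had log2 intensities of 10.43, 10.47 and 10.46 on the AGR arrays and of 10.14, 10.13 and 10.16 on the NME arrays. The groups did not overlap, and the increase was 1.24-fold (log2 FC 0.31, SE 0.04, adjusted p = 0.00162). Lmcd1, a LIM cofactor known from the heart and from smooth muscle, had levels of 10.37, 10.34 and 10.31 in AGR cells and of 8.37, 8.34 and 8.42 in NME cells. This was a FC of 3.90 (log2 FC 1.96, SE 0.04, adjusted p = 1.47e-06). Fhl1, a four-and-a-half LIM protein of muscle, had levels of 7.82, 7.90 and 7.83 on the AGR arrays, against 10.96, 10.67 and 10.86 on the NME arrays. It was 7.89-fold lower in AGR cells (log2 FC -2.98, SE 0.08, adjusted p = 2.09e-06), the largest change of the 40 genes, and its AGR level was close to the median of all probe sets. Fhl2, its relative and an SRF target that binds SRF in the nucleus, had levels of 11.01, 11.58 and 11.17 in AGR cells and of 11.72, 11.70 and 11.72 in NME cells. All AGR arrays lay below the NME arrays, yet AGR replicate 2 was close to them, and the log2 FC of -0.46 did not pass the test (adjusted p = 0.0532). Without AGR replicate 2 it was -0.62 and passed (adjusted p = 0.00121).

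Members of 1 family were then set against each other within each array, over 19 pairs. For 14 pairs the log2 difference between the relatives did not overlap between AGR and NME arrays, each with p = 0.1 by an exact two-sided permutation test, the smallest that 3 against 3 arrays can give (adjusted p = 0.136 over the pairs). No pair could therefore pass a threshold of 0.05. Several pairs share a gene, and a pair can separate through a change in 1 of its genes. The 14 pairs are thus not independent of each other or of the calls above. Over all single genes 36.4% did not overlap, and a share over other gene pairs was not computed. Of the 14 pairs, 6 hold a gene below 7.61 in at least 1 cell line (Actg2, Tpm2, Myh10, Myh11 or Flnc), and the size of these differences is uncertain. Of the 10 pairs with both genes at or above 7.61 in both cell lines, 8 did not overlap. The largest were Fhl1 minus Fhl2, which was lower by 2.52 on the log2 scale (-2.93 to -2.16), and Tns1 minus Tns3, at 1.92 (1.81 to 2.07). Tpm1 minus Tpm3 was higher in AGR cells by 0.71 (0.66 to 0.73), whereas Tpm1 minus Tpm4 differed by 0.07 with overlapping arrays (-0.03 to 0.16). Tpm3 was read there from its brightest probe set (log2 FC 0.03), and another of its probe sets had a log2 FC of 0.25. The range for Tpm1 minus Tpm3 leaves out this spread between probe sets. Cnn2 minus Cnn3 was higher by 0.38 (0.31 to 0.47), and Cnn1 minus Cnn2 differed by 0.07 (-0.35 to 0.37), so the spread of Cnn1 leaves room for a difference in either direction. Actn1 minus Actn4 was higher by 0.40 (0.14 to 0.70). The values in brackets are the lowest and the highest difference between any AGR array and any NME array.

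The other genes of the actin system were read from 5 lists with no gene in common with the 40 members. Of 197 genes measured, 50 (25.4%) were higher in AGR cells and 14 (7.11%) were lower, and the median log2 FC was 0.02. Among all genes tested, 12.6% were higher and 11.6% were lower, and among genes at or above 7.61 these shares were 19.7% and 17.6%. Differences between the shares of the lists and these shares were not tested. Among actin isoforms and assembly factors, 17 of 56 (30.4%) were higher and 5 (8.93%) were lower, with 11 higher without NME replicate 2 and 11 without AGR replicate 3. Fhod3, a formin of muscle sarcomeres, Pls3, a fimbrin, and Gsn, which severs and caps filaments, had log2 FCs of 1.07, 0.89 and 0.83. The genes that fell were Pls1 and Vil1, which bundle actin in microvilli, Lcp1, Fmnl2 and Dstn, with log2 FCs of -1.60, -1.28, -0.88, -0.83 and -0.35. The call of Dstn was lost with median centring, with the methods' t-test and on leaving out any array other than AGR replicate 3. Among MRTF and SRF regulators and immediate early SRF targets, 5 of 22 (22.7%) were higher and 2 (9.09%) were lower. Mical2, which oxidizes actin, Mrtfb, Elk3, Mrtfa and Fosb had log2 FCs of 0.63, 0.61, 0.47, 0.26 and 0.23. Of these 5, Mical2 and Mrtfb kept the call with the methods' t-test and without any 1 array, whereas Elk3, Mrtfa and Fosb lost it with that test and without NME replicate 1, 2 or 3. Fos, an immediate early gene driven by SRF with its ternary complex partners, had a log2 FC of -1.66, at 7.83 ± 0.04 in AGR cells and 9.49 ± 0.18 in NME cells (SD, n = 3 each). Ier2 had a log2 FC of -0.35, whose call was lost on leaving out any array other than NME replicate 3, with median centring and with the methods' t-test.

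**Figure D5:**
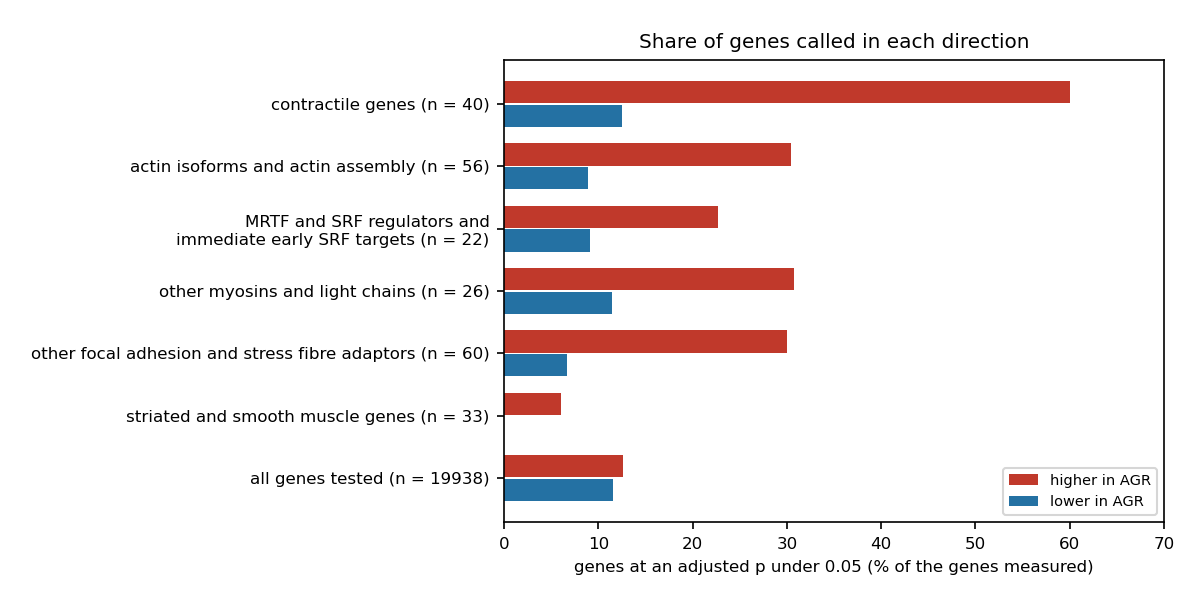
Share of genes (x axis, % of the genes measured in each list, number in brackets) called higher (red) or lower (blue) in AGR cells, for the 40 contractile genes, 5 lists of other actin genes and all genes tested. The contractile genes stand at 60.0% higher and 12.5% lower, against 12.6% and 11.6% of all genes.

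Of 26 other myosin genes and light chains, 8 (30.8%) were higher and 3 (11.5%) were lower, against 12.6% and 11.6% of all genes tested. Myo5a, a carrier of vesicles, Mprip, which brings myosin phosphatase to stress fibres, and Myo9a, an unconventional myosin, had log2 FCs of 0.94, 0.93 and 0.68. Myo6, Myo1d and Myh14 were lower, with log2 FCs of -1.13, -0.63 and -0.43. Of 60 further adhesion and stress fibre adaptors, 18 (30%) were higher and 4 (6.67%) were lower. Xirp2 had the largest increase (log2 FC 1.57) but lay below 7.61 in both cell lines. Lims2, a PINCH partner of integrin-linked kinase, and Lpp, a relative of zyxin, had log2 FCs of 1.24 and 0.90. Lims1, the other PINCH gene, was brighter than Lims2 and rose less, with a log2 FC of 0.29. Its levels were 11.47 in AGR cells and 11.18 in NME cells, against 10.01 and 8.78 for Lims2. Csrp2, a relative of Csrp1, was 4.63-fold lower in AGR cells (log2 FC -2.21, SE 0.09), and Fermt1, Lima1 and Fhl3 had log2 FCs of -1.15, -0.62 and -0.48. The call of Lima1 was lost with the methods' t-test and without NME replicate 1, 2 or 3.

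Of 33 genes of striated and smooth muscle, 2 (6.06%) were higher and 0 lower by limma, against 12.6% and 11.6% of all genes tested (0 lower also at an unadjusted p under 0.05 and with the methods' t-test, and 1 lower without AGR replicate 2). The difference between these shares was not tested. The 2 were Cryab, a small heat shock protein that is also found outside muscle, with a log2 FC of 1.81, and Tnnt2, cardiac troponin T, with a log2 FC of 1.00. Of the 33 genes, 17 lay below 7.61 in both cell lines, where a change may not be visible. None of 8 smooth muscle markers, which include Des, Myocd and Myh11, passed the test by limma, at an unadjusted p under 0.05 or with the methods' t-test. Their summed intensity was 1077 to 1086 on the AGR arrays and 1066 to 1155 on the NME arrays, 6 of the 8 lay below 7.61 in both cell lines, and none was at 0.

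Markers of other cell types were read because Acta2 and its partners also mark fibroblasts and myoepithelium. Of 9 fibroblast markers, Pdgfra was higher with a log2 FC of 0.39, at 7.79 in AGR cells and 7.41 in NME cells, and the summed intensity of the list was 1813 to 1936 on the AGR arrays and 1775 to 1956 on the NME arrays. Col1a1 and Col1a2 had log2 FCs of 0.01 and -0.07. Of 9 myoepithelial and basal markers, Acta2 was the only one called. At an unadjusted p under 0.05 from limma, 2 were lower, Krt14 and Krt17. Their log2 FCs were -0.25 and -0.17, and both lay below 7.61 in both cell lines. The summed intensity of that list was 1444 to 1501 in AGR cells and 1380 to 1485 in NME cells, and 7 of its genes lay below 7.61 in both. None of the markers of pericytes (5), skeletal muscle (6) or endothelium (6) passed the test by limma, at an unadjusted p under 0.05 or with the methods' t-test. Of 7 immune markers, Cd68 and Csf1r were higher (28.6%) and Cd14 was lower (14.3%), against 12.6% and 11.6% of all genes tested. Cd68 had a log2 FC of 0.96, at 8.93 in AGR cells and 7.96 in NME cells. The log2 FC was 0.28 for Csf1r (7.83 and 7.56) and -0.60 for Cd14 (11.08 and 11.68). The summed intensity of this list was 3066 to 3626 on the AGR arrays and 4046 to 4405 on the NME arrays. The call of Csf1r was lost with the methods' t-test and on leaving out any array other than AGR replicate 2 (adjusted p up to 0.122), and Ptprc stood at 7.14 in AGR cells and 7.08 in NME cells. The summed intensity of the 11 epithelial markers was 44380 to 45630 on the AGR arrays and 56700 to 57330 on the NME arrays. Cdh1, Krt19 and Elf3 were lower (log2 FC -0.60, -1.04 and -1.46). The other 8 did not pass the test, with log2 FCs of -0.10 for Krt8 and -0.05 for Krt18. The part of these cell type markers in the changes of the contractile genes was not tested. In such bulk RNA fewer cells of a type and less RNA per cell cannot be told apart.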

How the data were processed

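Gene expression in AGR and NME cells was profiled with 6 Affymetrix Mouse Gene 1.0 ST arrays, 3 per cell line, assigned by the sample titles. The design text speaks of a number of groups that does not match these labels. The deposited values are intensities on a linear scale for 35557 probe sets, processed by the authors. The submitters' processing notes name MAS5, which needs mismatch probes that this array type does not have, so the normalization is unknown. Exact ties between arrays occurred in 31.3% of genes, and 23 genes had 1 value on all arrays.

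Log2 was taken with no offset and no filter on low values. Gene symbols came from the platform annotation, where 21789 probe sets carried 1 symbol, 1621 several and 12147 none. The brightest probe set with 1 symbol stood for a gene. AGR and NME cells were compared in limma 3.58.1 under R 4.3.3 (lmFit, eBayes), with Benjamini-Hochberg adjustment over 19938 genes, and a gene was called at an adjusted p under 0.05. The limma fit, and no other step, was tested on simulated data, with normal noise drawn independently for each array. Members and lists were chosen with earlier results of these data known, and 1 of the lists is not reported here. Values per array are given for members called with a FC above 1.5 and for Acta2, Tagln, Cnn1, Myl9, Mylk and Srf, with Zyx and Fhl2 added after their values were seen, and from each list up to 3 called genes in each direction are named, or all where 5 or fewer were called. Myl12a, Myl12b and Lims1 were also named after their values were seen. Promoter sequences and gene names are those of RefSeq for GRCm38.p6. The alternatives were quantile normalization, median centring, removal of genes dimmer than the 25th percentile or the median of probe sets, averaging a gene's probe sets, trend and robust settings, the t-test of the study's methods with Benjamini-Hochberg adjustment, an offset of 16, the replicate number as a block, unadjusted p-values, leaving out each array, and the promoter window before the start site only.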

Additional observations from a re-analysis of the deposited data

How the results depend on the processing

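Of the 29 called contractile genes, 23 kept their direction and call under each alternative run for them, and none of the 29 changed direction. The other 6 were Smtn, Palld, Pdlim7, Zyx, Tes and Parva. The number of members that were higher lay between 21 (the methods' t-test, and without NME replicate 1, 2 or 3 or AGR replicate 3) and 24. The number that were lower, 5, lay between 3 and 6 on leaving out an array, with 3 without NME replicate 2 or 3 or AGR replicate 1 or 3. Over all genes, leaving out an array gave 1755 to 2784 higher and 1581 to 2573 lower, and the methods' t-test gave 1687 and 1588. Whether the replicate numbers pair the arrays could not be decided with 3 arrays per cell line. Correlations of deviations were -0.126, 0.327 and 0.259 for numbers 1, 2 and 3, and 3 of 6 arrays were closest to their own number. With the replicate block 23 members were higher and 4 were lower, and it gave 2728 genes higher and 2312 lower. The block ended the calls of Palld (adjusted p = 0.0544), Parva (0.072) and Tes (0.105), and Fhl2 passed (0.0355). Sign changes occurred in 6 genes that did not pass the test. Lmod1 had a log2 FC of 0.0184 with quantile normalization and 0.0187 with median centring. On leaving out an array, the log2 FC lay between -0.0541 and 0.0631 for Actg2, -0.0017 and 0.0486 for Tagln, -0.11 and 0.0069 for Tpm2, -0.0415 and 0.0179 for Lmod1, -0.013 and 0.0335 for Myh10 and -0.0469 and 0.0625 for Myh11. The causes were not tested. Fhl2 also passed with quantile normalization, with either filter and with trend and robust settings (adjusted p between 0.0304 and 0.0436). With genes below the median removed, the 6 dim members have no value. The number of arrays and the unknown background limit the precision of low levels.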
